A study of Mus musculus with 2 samples.

Results

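The low-RNA monocytic barcodes were 10x droplets that held few RNA molecules but still carried the transcripts of monocytes and macrophages. They were taken from the filtered matrices of GR-1+ cells by measured values. A barcode was kept with at least 250 detected genes, 500 to 2000 unique molecular identifiers (UMIs, the count of distinct captured RNA molecules) and at most 12.5% of UMIs from mitochondrial genes. Its UMIs of Apoe, C1qa, Lyz2 and Csf1r together had to be at least 5 and above its UMIs of the granulocyte genes S100a8, S100a9, G0s2 and Csf3r. Of 4390 barcodes, 738 met this rule. The library labelled 4T1p gave 407 of them, and 331 came from the one labelled 4T1m.

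The cells came from tumors of the mouse triple-negative breast carcinoma line 4T1 grown in the mammary fat pad of female BALB/c mice of 8 to 10 weeks. 4T1p is the parental line, whose tumors resist anti-PD1 treatment, and 4T1m is a polyclonal line made from it by mutagenesis with MNNG, whose tumors respond. Both kinds of tumor had received anti-PD1, a checkpoint-blocking antibody, for 2 weeks before they were dissociated enzymatically and GR-1+ cells were selected with magnetic beads. Each tumor type gave 1 library, the number of mice behind a library is not given in the sources used here, and no untreated tumor was included, so no p-value is given between tumors. The library labelled 4T1p held 1641 barcodes with a median of 2066 UMIs and the library labelled 4T1m held 2749 barcodes with a median of 2763 UMIs. The depths stated for the tumors in the study's text are the other way round, and the library names here follow the labels of the files. The 2 libraries shared 0 of these 738 barcode sequences.

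Monocytes enter tumors from the blood and mature there into macrophages, which engulf dying cells, present antigen and release cytokines. Tissue macrophages are a main source of the complement protein C1q and of apolipoprotein E. The GR-1 antibody binds the surface proteins Ly6G, carried by neutrophils, and Ly6C, carried by many monocytes and at lower levels by other cells. Malat1, Neat1 and Xist are long noncoding RNAs that remain in the nucleus, whereas the messenger RNAs of ribosomal proteins are mostly short, abundant and cytoplasmic.

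Most low-RNA barcodes of the library labelled 4T1p were monocytic. Of the 563 barcodes in the UMI window that passed the gene and mitochondrial limits there, 72.3% (95% exact binomial interval 68.4 to 76.0) met the monocytic rule, against 41.6% (38.1 to 45.1) of 796 in the library labelled 4T1m. Granulocytic barcodes, with more UMIs of the 4 granulocyte genes, made up 13.1% and 47.0% of the same windows. Among monocytic barcodes of up to 27000 UMIs, the low ones were 52.4% (48.8 to 55.9) of 777 in 4T1p and 36.1% (33.0 to 39.3) of 916 in 4T1m. These intervals cover counting error within a library and say nothing of the spread between mice.

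The limits of the rule passed through a continuous range. In the 4T1p library, 9 kept barcodes had exactly 5 UMIs of the 4 monocytic genes and 19 barcodes just outside had 4. In the 4T1m library these numbers were 18 and 16. At the upper end, 7 and 11 kept barcodes lay within 100 UMIs below the limit of 2000, and 15 and 8 barcodes that were not kept lay within 100 UMIs above it. Within the UMI window, 96 and 214 barcodes exceeded the mitochondrial limit, and 137 and 49 had fewer than 250 genes.

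The kept barcodes had a median of 889 UMIs (501 to 1991) and 478 genes in the 4T1p library and of 991 UMIs (500 to 1997) and 525 genes in the 4T1m library. For comparison, monocytic barcodes of 8000 to 27000 UMIs, called deep barcodes here, were chosen by the same rule on the 8 genes. There were 216 and 390 of them, with median UMIs of 16226.5 and 14054, and each was thinned at random to the depth of a low barcode. Levels below are CPM, a gene's UMIs per 1000000 of the UMIs summed over the barcodes of a class in a library, after thinning. At an equal 500 UMIs the low barcodes showed a median of 313 and 320 genes and the deep barcodes 329 and 343. The median share of mitochondrial UMIs in low barcodes was 2.50% in the 4T1p library and 4.86% in the 4T1m library, against 5.06% and 5.04% in deep barcodes. For doublets, the barcodes with the highest scores of the doublet caller Scrublet were marked. Their number, 13 and 44, was set in advance from the number of barcodes in the library. Of these, 0 and 1 were low barcodes and 2 and 12 deep ones.

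The 4 monocytic genes of the rule did not all differ in the same direction between low and deep barcodes. The 4 genes of the monocytic rule set the choice, so their levels are a description. Apoe stood at 16819 CPM in low and 15148 in deep barcodes of the 4T1p library and at 12157 and 8014 in the 4T1m library, and C1qa at 6093 and 4480, and at 3788 and 2273. Lyz2, which encodes lysozyme, stood at 9887 and 7219, and at 9524 and 8446. Csf1r, the receptor for the growth factor that macrophages depend on, was lower in low barcodes, at 321 against 639 CPM and at 339 against 539 CPM. In UMIs per 1000, the 4 genes together had a median of 25.3 and 20.8 in low barcodes, 22.9 and 15.2 in deep ones and 0.673 and 0.666 in granulocytic barcodes of the same low window.

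Some markers outside the rule were detected more often in low barcodes than in their granulocytic neighbours, and others were not. With each barcode thinned to 500 UMIs, C1qb, a second chain of complement C1q, was detected in 81.3% of low barcodes of the 4T1p library and 63.4% of the 4T1m library. Among low granulocytic barcodes, which should lack it and were thinned to the same depth, C1qb was detected in 8.1% and 4.3%. Aif1, a cytoskeletal protein of macrophages, was detected in 51.8% and 41.7% of low monocytic barcodes and in 6.8% and 2.1% of low granulocytic ones. Tyrobp was detected about as often in both, in 57.5% and 56.8% of low monocytic and 56.8% and 59.9% of low granulocytic barcodes. Cd68 was detected in 20.4% and 19.0% against 23.0% and 11.8%. The neutrophil gene S100a8, on which the rule sorts the barcodes so that its contrast is fixed by the choice, was detected in 5.4% and 13.9% of low monocytic and 93.2% and 94.1% of low granulocytic barcodes. No UMI of the rule's 4 granulocyte genes was present in 75.4% and 47.4% of low monocytic barcodes.

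A UMI of Ptprc, which encodes the pan-leukocyte surface protein CD45, was found in 48 low barcodes (11.8%) of the 4T1p library and in 75 (22.7%) of the 4T1m library. In low granulocytic barcodes, of the same UMI window, the shares were 47.3% and 78.6%. In the deep monocytic barcodes at full depth they were 95.8% and 99.2%. With every barcode thinned to 500 UMIs, the shares were 5.65% and 11.8% in low monocytic, 22.7% and 36.4% in deep monocytic and 28.4% and 54.3% in low granulocytic barcodes. The study kept only barcodes with CD45 RNA, a step not applied here, under which these 48 and 75 barcodes would remain.

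RNAs that stay in the nucleus were scarce in the low barcodes. Malat1 (chromosome 19, positions 5795690 to 5802672 of mm10, minus strand) stood at 1455 CPM in low and 12759 CPM in deep barcodes of the 4T1p library, and at 1826 and 18571 CPM in the 4T1m library. The log2 ratio was -3.15 (SE 0.10, adjusted p = 5.58e-205, edgeR quasi-likelihood test with the library as a block). With a Ptprc UMI required in both classes this ratio was the smallest in size of the settings run, and its value is given at the end. Most low barcodes held no Malat1 UMI at all. At 500 UMIs each, Malat1 was detected in 15.5% of low barcodes of the 4T1p library and 25.7% of the 4T1m library, against 94.4% and 98.5% of deep ones, and without thinning the low shares were 21.6% and 35.6%. Low granulocytic barcodes of the same UMI window held it in 87.8% and 94.1%, so at this depth the shortage was seen in monocytic and not in granulocytic barcodes.

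**Figure D1:**
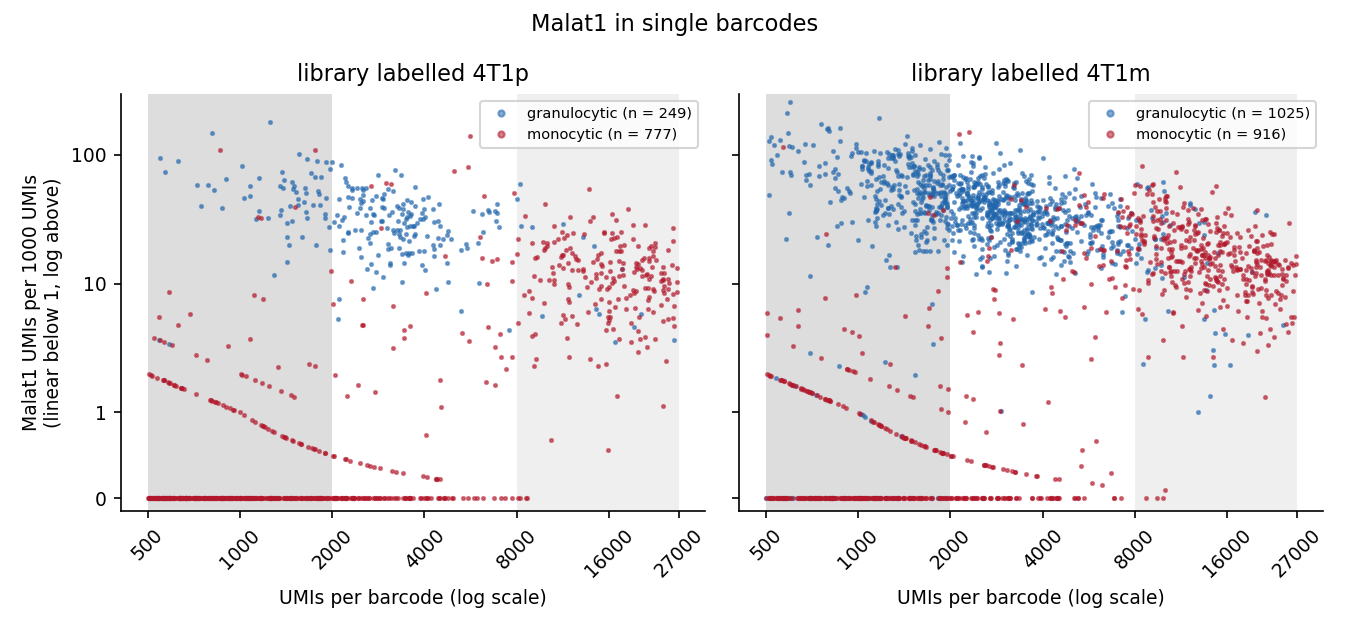
Malat1 UMIs per 1000 UMIs in single barcodes against total UMIs on a log axis, in the libraries labelled 4T1p and 4T1m, with monocytic barcodes in red and granulocytic ones in blue and the low and deep windows shaded. The vertical axis is linear below 1 and logarithmic above. Low monocytic barcodes gather at 0, whereas granulocytic barcodes of the same UMI window have medians of 44.5 and 52.7 per 1000. The granulocytic ones were deeper within that window, with median UMIs of 1421.5 and 1378 against 889 and 991. In the 4T1p library the 13 granulocytic barcodes of 500 to 750 UMIs have a median of 3.40 per 1000.

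Neat1, the scaffold of nuclear paraspeckles, and Xist, the RNA that coats the inactive X chromosome in female cells, followed Malat1, and 4 of 4 tested RNAs of this kind were lower by both edgeR, which called 20.6% of all genes tested lower, and DESeq2, which called 5.74% lower. Neat1 stood at 62.3 against 733 CPM in the 4T1p library and 113 against 1134 CPM in the 4T1m library (log2 ratio -3.34, SE 0.19, edgeR adjusted p = 2.20e-67). Xist stood at 44.8 against 889 CPM and at 37.6 against 1217 CPM (log2 ratio -4.55, SE 0.21, edgeR adjusted p = 5.59e-99). The low barcodes of both libraries stood below the deep ones in each of these RNAs. Kcnq1ot1, a long noncoding RNA of an imprinted locus, had 2 and 1 UMIs in all low barcodes, against 89.9 and 123 CPM in deep ones. Of the 407 low barcodes of the 4T1p library, 340 (83.5%, 79.6 to 87.0) had no UMI of Malat1, Neat1 or Xist at a depth of 500 UMIs, and of the 331 of the 4T1m library 241 (72.8%, 67.7 to 77.5). Among deep barcodes at that depth 3.70% and 1.28% had none. The summed level of the nuclear-retained RNAs in low granulocytic barcodes was 54216 and 62298 CPM.

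Detection of Malat1 did not climb evenly with depth. In the 4T1p library, thinned to 500 UMIs, it was 14.3% in monocytic barcodes of 500 to 750 UMIs, 6.35% between 1500 and 2000, 22.6% between 3000 and 5000, 66.7% between 5000 and 8000 and 97.5% above 12000. In the 4T1m library the same windows gave 31.6%, 29.0%, 38.6%, 82.6% and 100%. The rise thus fell between 3000 and 8000 UMIs in both libraries, above the upper limit of the low barcodes. Granulocytic barcodes of 500 to 750 UMIs had Malat1 in 82.5% of 40 in the 4T1m library and in 53.8% (25.1 to 80.8) of the 13 in the 4T1p library. The windows were set after the data were seen.

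**Figure D2:**
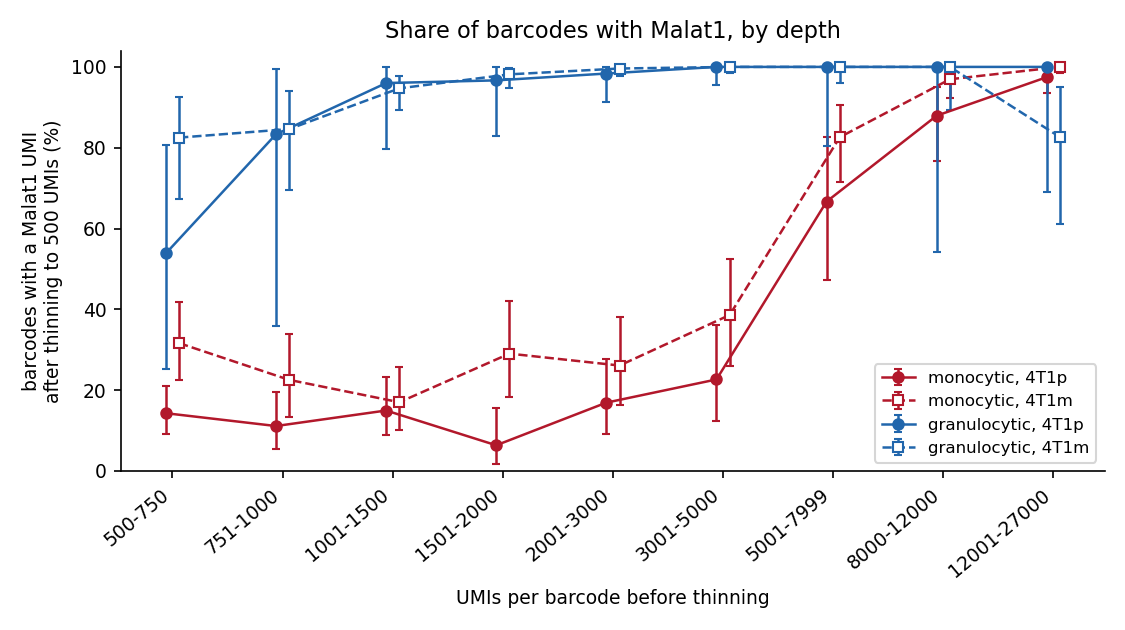
Percentage of barcodes with a Malat1 UMI after thinning to 500 UMIs, by window of total UMIs, for monocytic and granulocytic barcodes of each library, with 95% exact binomial intervals as bars. Monocytic barcodes stay under 40% up to 5000 UMIs and exceed 85% from 8000 UMIs on.

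Across all genes, 4514 were tested outside the 8 genes of the rule and the mitochondrial genome, and 817 were higher (18.1%) and 932 lower (20.6%) in low barcodes at an adjusted p under 0.05 (edgeR). The fit rests on 2 sums a class, with 1 residual degree of freedom and a spread pooled over genes, so its p-values are very small for abundant genes, and DESeq2 called 212 higher (4.7%) and 259 lower (5.74%), all of them among the edgeR calls. Without the library as a block, edgeR called 106 higher (2.35%) and 360 lower (7.98%), and 38 of the named genes lost their call, among them C1qb, C1qc, Fabp5, Lgals1, Il1b, Jun, Fos, Pfn1, Cfl1, Gapdh, Itgam and Ptprc. The median log2 ratio over all genes tested was -0.00. The barcodes of both classes were assigned by UMI count and by the 8 genes, and genes that vary with either are chosen along with them. With a Ptprc UMI required in both classes 2440 genes were tested, of which 5.9% were higher and 12.2% lower, and with low barcodes of 500 to 1000 UMIs 2362, of which 15.1% were higher and 20.6% lower. Against monocytic barcodes of more than 2000 and fewer than 8000 UMIs, called middle barcodes, 0 of 3429 genes were higher and 1.11% lower. Counts for the gene lists are to be read against these shares, the edgeR counts against 18.1% and 20.6%.

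**Figure D3:**
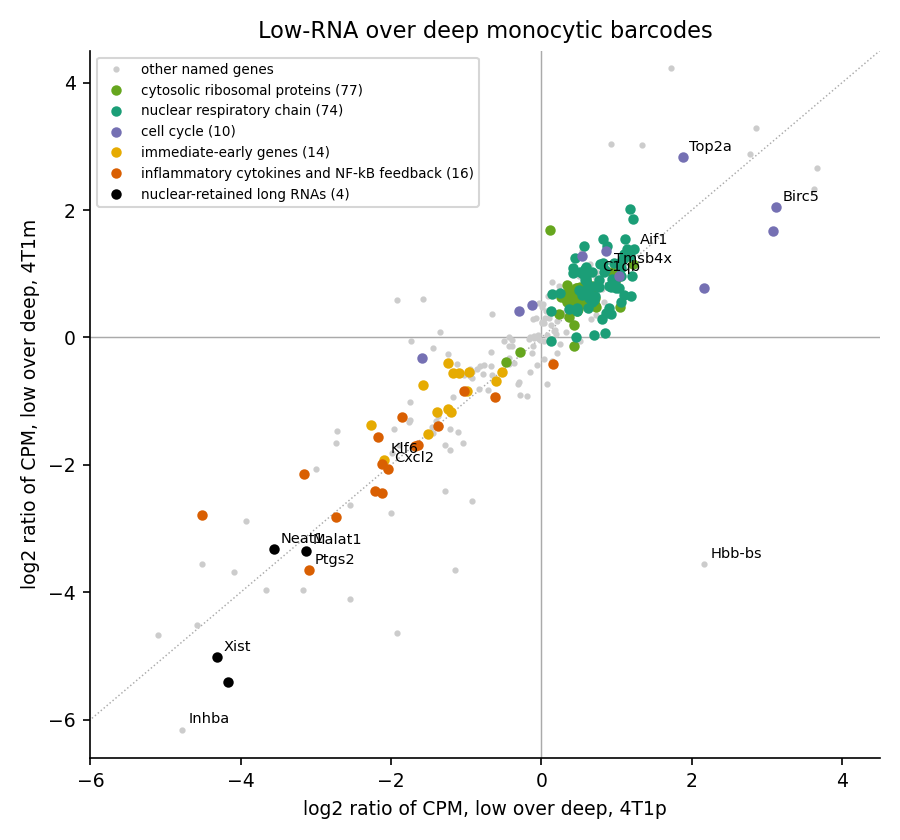
log2 ratio of low over deep monocytic barcodes, with 4T1p on the horizontal and 4T1m on the vertical axis, 1 point for each named gene with a test and coloured by gene list. Malat1, Neat1 and Xist lie far down in both libraries, and Tmsb4x, Aif1 and C1qb lie up in both.

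Complement and macrophage markers outside the rule were mixed. Of 14 such genes, 5 were higher and 4 lower, and the list's summed level was 17945 CPM in low and 16780 CPM in deep barcodes of the 4T1p library and 13729 and 12953 CPM in the 4T1m library. Aif1 rose from 686 to 1609 CPM and from 467 to 1201 CPM (log2 ratio 1.38, SE 0.13, edgeR adjusted p = 2.39e-25). C1qb was at 4277 CPM in low and 2597 CPM in deep barcodes of the 4T1p library and at 2523 and 1317 CPM in the 4T1m library (log2 ratio 0.92, SE 0.10, edgeR adjusted p = 2.10e-17). C1qc, the remaining chain of C1q, was 0.72 higher on the log2 scale (SE 0.10). A minimum of 5 rule UMIs asks more of a small barcode than of a deep one, and when the rule was applied after thinning the log2 ratios were 1.27 for Aif1, 0.76 for C1qb and 0.57 for C1qc. Tyrobp and Fcer1g, adaptors of activating receptors, were each 0.32 higher by edgeR, a call that DESeq2 did not make (adjusted p = 0.269 and 0.235).

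The members that fell were of other kinds. Cybb, the catalytic subunit of the phagocyte NADPH oxidase, fell from 1074 to 272 CPM and from 1419 to 405 CPM (log2 ratio -1.80, SE 0.14, edgeR adjusted p = 1.39e-35). Cd14, the co-receptor for lipopolysaccharide, had a log2 ratio of -1.27. Cd68, a lysosomal glycoprotein, stood at 471 and 464 CPM and at 385 and 268 CPM, and Adgre1, which encodes F4/80, at 157 and 137 CPM and at 98.4 and 94.9 CPM, and neither passed the test. Low barcodes therefore held C1q transcripts at or above the level of deep ones and held less Cybb and Cd14.

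Fabp5, a fatty acid carrier, and Lgals1, which encodes galectin-1, were the given markers not used in the rule. They were named with earlier results of these data known. Their ratios and p-values are therefore a description and not independent support. Fabp5 stood at 765 CPM in low and 525 CPM in deep barcodes of the 4T1p library and at 668 and 261 CPM in the 4T1m library (log2 ratio 1.03, SE 0.15, edgeR adjusted p = 1.48e-10). Lgals1 stood at 1851 and 1055 CPM and at 1733 and 1022 CPM (log2 ratio 0.87, SE 0.11, edgeR adjusted p = 7.10e-13). Both were thus more abundant in the low barcodes of each library. Among barcodes with a Ptprc UMI the log2 ratio of Fabp5 was 0.05 and no longer passed the test, and that of Lgals1 was 0.70. At 500 UMIs Fabp5 was detected in 18.2% and 17.8% of low barcodes and in 4.1% and 8.6% of low granulocytic ones.

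Genes of inflammatory signalling fell together. Of 16 cytokine, chemokine and NF-kB feedback genes tested, 15 were lower in low barcodes and 0 higher, all 15 also by DESeq2, with a median log2 ratio of -1.84, and 6 were lower against the middle barcodes. Their summed level was 10098 CPM in low and 32368 CPM in deep barcodes of the 4T1p library and 14967 and 49383 CPM in the 4T1m library. Ptgs2, which encodes the prostaglandin-forming enzyme COX-2, stood at 54.8 against 468 CPM and at 148 against 1855 CPM (log2 ratio -3.40, SE 0.18, edgeR adjusted p = 5.81e-74). Cxcl2, a chemokine that attracts neutrophils, fell from 11037 to 2680 CPM and from 18310 to 4393 CPM (log2 ratio -1.96, SE 0.09, edgeR adjusted p = 3.59e-95). At 500 UMIs each it was detected in 36.9% and 48.6% of low barcodes and in 83.3% and 90.3% of deep ones.

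Most other members of this list fell as well. The cytokine gene Tnf stood at 194 against 899 CPM and at 113 against 600 CPM, a log2 ratio of -2.20. The NF-kB feedback genes Nfkbiz and Nfkbia had log2 ratios of -2.48 and -1.61, and Nlrp3, the inflammasome sensor, of -1.95. The macrophage chemokines Ccl4 and Ccl2 had log2 ratios of -1.30 and -0.70. Il1b, which encodes interleukin-1β, fell from 2824 to 1383 CPM and from 5276 to 2937 CPM (log2 ratio -0.85, SE 0.10). Sod2, the mitochondrial superoxide dismutase, stood at 222 against 199 CPM and at 275 against 365 CPM and did not pass the test. Cytokine RNA was therefore reduced in low barcodes and still detectable there.

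Immediate-early genes, whose RNAs are made and degraded within a short time after a stimulus, were also lower, 14 of 14 by edgeR and 11 by DESeq2 as well, with a median log2 ratio of -0.96. Without the library block 4 passed, and against the middle barcodes 2. Klf6, a zinc-finger transcription factor, fell from 1504 to 354 CPM and from 1917 to 506 CPM (log2 ratio -1.91, SE 0.13, edgeR adjusted p = 9.08e-47). Jun and Fos, the partners of the AP-1 factor, had log2 ratios of -1.42 and -0.68, and Egr1 of -1.09. Of the heat shock chaperones 5 of 11 were lower and 1 higher. Hspa1a and Hspa1b, the inducible chaperones, fell with log2 ratios of -1.70 and -1.95, and Hspa5, the chaperone of the endoplasmic reticulum, with -1.23, whereas Hspe1, a mitochondrial co-chaperone, was 0.82 higher. Of 6 death and stress genes tested 3 were lower and 0 higher. Bcl2l11, which encodes the cell death activator BIM, had a log2 ratio of -2.50.

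Most cytosolic ribosomal protein genes were higher by the edgeR fit with the library block. Of 77 tested, 73 were higher and 0 lower, 61 of them also by DESeq2, with a median log2 ratio of 0.64. Together they took 202606 CPM in low and 144485 CPM in deep barcodes of the 4T1p library and 186644 and 121589 CPM in the 4T1m library. Single low barcodes varied widely around medians of 19.5% and 17.7% ribosomal protein UMIs, from 2.44% to 41.4% and from 3.54% to 46.3%. Low granulocytic barcodes had medians of 3.57% and 3.06%. Among barcodes with a Ptprc UMI 19 ribosomal protein genes passed, without the library block 2, and against the middle barcodes 0.

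Nuclear-encoded genes of the respiratory chain moved the same way, 63 of 74 higher and 0 lower by edgeR and 31 by DESeq2, with a median log2 ratio of 0.87. With a Ptprc UMI required 25 passed, without the library block 13, and against the middle barcodes 0. Cox7b, a subunit of cytochrome c oxidase, stood at 660 against 307 CPM and at 585 against 235 CPM (log2 ratio 1.30, SE 0.16). Uqcrb, a subunit of complex III, stood at 558 against 246 CPM and at 550 against 228 CPM (log2 ratio 1.31, SE 0.17). Transcripts of the mitochondrial genome itself, which the rule limits, stood at 33302 against 52445 CPM in the 4T1p library and at 52426 against 53075 CPM in the 4T1m library, given without a test. The nuclear-encoded subunits were thus higher in both libraries while the mitochondrial transcripts were not.

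Genes of the actin cytoskeleton were higher for the small monomer-binding proteins. Tmsb4x, which encodes thymosin β4, rose from 14339 to 26330 CPM and from 13046 to 27425 CPM (log2 ratio 1.06, SE 0.08, edgeR adjusted p = 2.47e-35). Pfn1, which encodes profilin, and Cfl1, which encodes cofilin, had log2 ratios of 0.93 and 0.87, and Actb of 0.41. Of the 11 genes of this list 7 were higher and 2 lower. Of 10 glycolysis and hypoxia genes 7 were higher and 1 lower. Gapdh and Aldoa had log2 ratios of 0.71 and 0.64, and Mif, a cytokine counted in this list, of 1.00, while the glucose transporter Slc2a1 fell with -1.42. Among barcodes with a Ptprc UMI, Actb, Gapdh and Aldoa no longer passed.

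Cell cycle genes were higher in low barcodes, 8 of 11 by edgeR and 6 by DESeq2, with 0 lower and a median log2 ratio of 1.16. With a Ptprc UMI required 3 passed, in the window of 500 to 1000 UMIs 4, and against the middle barcodes 0. Birc5, which encodes survivin, stood at 82.2 against 9.46 CPM and at 78.1 against 19.0 CPM (log2 ratio 2.41, SE 0.44, edgeR adjusted p = 6.63e-07). Stmn1, a tubulin-binding protein, stood at 199 against 23.7 CPM and at 136 against 42.7 CPM. Mki67, the proliferation marker, went the other way, at 29.9 against 89.9 CPM and 66.6 against 83.0 CPM, and did not pass the test. Against deep barcodes, several genes of the list were thus higher and Mki67 was not.

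The highest and lowest genes were taken among those with at least 50 UMIs in the classes together and 1 direction in both libraries. These genes were chosen for their ratios, which are a description. The 10 highest included the cell cycle genes Birc5, Top2a and Stmn1 of the list and, outside it, Ube2c, an enzyme of mitotic exit, Tyms, the thymidylate synthase, 2810417H13Rik and Cks1b, the last of which DESeq2 did not call (adjusted p = 0.106). The remaining ones were Npl, a lyase of sialic acid metabolism, at 117 against 9.46 CPM and 83.9 against 16.6 CPM, Rnase2a, a secreted ribonuclease, at 97.1 against 14.2 CPM and 69.5 against 9.49 CPM, and Ube2v2, which DESeq2 did not call (adjusted p = 0.134). The 10 lowest genes held Xist and Kcnq1ot1. They further held Inhba, which encodes a subunit of activin and had 2 and 1 UMIs in low barcodes against 137 and 206 CPM in deep ones, Thbs1, which encodes thrombospondin-1 and stood at 2.49 against 56.8 CPM and at 43.4 against 510 CPM, and Chka, a choline kinase, with 5 and 3 UMIs against 298 and 199 CPM. Traf1, a signalling adaptor of tumor necrosis factor receptors, had 2 and 3 UMIs against 85.2 and 112 CPM, and Nfat5, a transcription factor of the osmotic stress response, 4 and 5 UMIs against 89.9 and 225 CPM. Mir155hg, the host transcript of miR-155, had 0 CPM in low barcodes of the 4T1p library and 2.89 CPM in those of the 4T1m library against 37.8 and 109 CPM. Gpr137b-ps and Gm6483 completed this group.

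Antigen presentation, lysosome and iron genes differed less. Of 6 MHC class II genes 3 were higher and 0 lower, with a median log2 ratio of 0.20. Cd74, the invariant chain, stood at 15397 against 15304 CPM and at 8051 against 6878 CPM, and DESeq2 did not call it (adjusted p = 0.391). Of 13 lysosome genes 2 were higher and 4 lower. Cd63, a tetraspanin of lysosomal membranes, was 0.70 higher, and Psap and Ctsl, a saposin precursor and a protease, had log2 ratios of -0.59 and -0.68. Fth1, the ferritin heavy chain, stood at 23440 against 22887 CPM and at 26818 against 22936 CPM (edgeR adjusted p = 0.0203), a call that DESeq2 did not make (adjusted p = 0.326), and Ftl1, the light chain, was 0.52 higher. Of 7 lipid genes 2 were higher and 3 lower, among them the cholesterol exporter Abca1 with a log2 ratio of -1.54.

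Interferon-stimulated genes went both ways, 2 of 13 higher and 5 lower. Rsad2, which encodes viperin, fell from 435 to 74.7 CPM and from 546 to 31.8 CPM (log2 ratio -3.09, SE 0.23). Cxcl10, a chemokine for T cells, had a log2 ratio of -1.28. Ifitm3, an antiviral membrane protein, was 0.51 higher, and Cxcl9 was 0.95 higher by edgeR but was not called by DESeq2 (adjusted p = 0.0890).

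Genes of the monocyte end of the lineage were lower in part. Ly6c2, which encodes the Ly6C that GR-1 antibody binds, had 1 UMI in all low barcodes of the 4T1p library and 0 in those of the 4T1m library, where 0 UMIs allow up to 8.68 CPM, against 47.3 and 49.8 CPM in deep barcodes. Plac8, a gene of classical monocytes, fell from 360 to 94.7 CPM and from 289 to 11.6 CPM (log2 ratio -2.57, SE 0.26). Ccr2, the chemokine receptor through which monocytes enter tissue, stood at 154 against 421 CPM and at 344 against 387 CPM, and DESeq2 did not call it (adjusted p = 0.219). F13a1, a transglutaminase of monocytes, stood at 72.2 against 184 CPM in the 4T1p library and at 376 against 353 CPM in the 4T1m library and did not pass the test. Among macrophage genes, Spp1, which encodes osteopontin, stood at 2120 against 1845 CPM and at 2402 against 2847 CPM and Mmp12 had a log2 ratio of -0.17, and neither passed. Ccl12, a chemokine, was 0.95 higher. Surface genes of leukocytes were lower in 5 of 6 cases and higher in 1. Ptprc stood at 139 against 383 CPM and at 344 against 916 CPM (log2 ratio -1.35, SE 0.17), Cd44, the hyaluronan receptor, had -2.38 and Itgam, which encodes CD11b, -1.19, whereas the small glycoprotein gene Cd52 was 0.59 higher.

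The remaining lists were small. Of 4 inflammatory monocyte genes tested, 0 were higher and 3 lower, and of the 2 tested genes of the Ly6 family 1 was lower, Ly6c2. Of 7 genes of Mmp12 and Thbs1 macrophages 0 were higher and 3 lower, of 6 genes of Cx3cr1 and Cxcl9 macrophages 1 was higher and 1 lower, and of 5 genes of Cd163 and Lyve1 macrophages 0 were higher and 1 lower. Of 9 galectin, S100 and annexin genes 2 were higher and 3 lower, among the latter the calcium-binding proteins S100a4, at 19.9 against 132 CPM and at 43.4 against 138 CPM, and S100a6, with a log2 ratio of -1.27. Of 5 iron and heme genes 3 were higher and 1 lower, and of 7 neutrophil genes outside the rule 1 was higher and 2 lower.

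**Figure D4:**
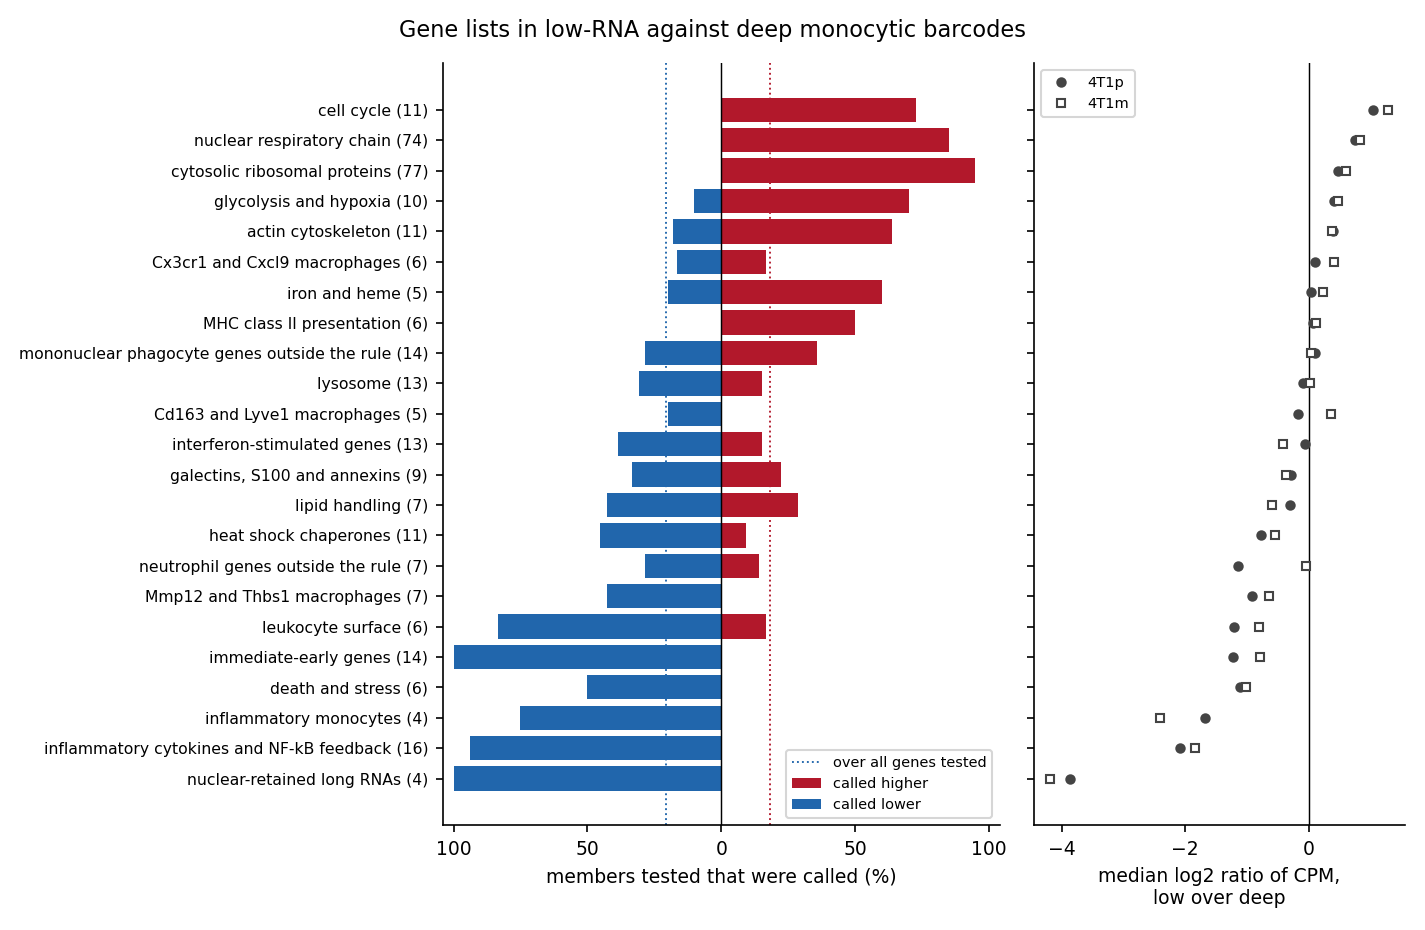
For each gene list with at least 4 genes tested, the left panel gives the percentage of tested genes called higher (red) or lower (blue) in low barcodes, with dotted lines at 18.1% and 20.6% for all genes, and the right panel the median log2 ratio in each library. The nuclear-retained RNAs (-3.87 and -4.18) lie lowest, the inflammatory cytokine list (-2.08 and -1.85) and the inflammatory monocyte list (-1.69 and -2.41) come next in an order that differs between the libraries, and the cell cycle list (1.03 and 1.28) lies highest among those drawn.

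The change was ordered by transcript length. The 4510 tested genes with a transcript in GENCODE M21 were split into 5 groups of equal size by the length of their longest protein-coding transcript, or of their longest transcript where none codes for protein. The median log2 ratio of low over deep was 0.65 for genes of 231 to 1467 bases, 0.31 for 1469 to 2302, -0.01 for 2304 to 3328, -0.30 for 3329 to 4900 and -0.84 for 4902 to 93092 bases. In the shortest group 442 genes were higher and 47 lower, and in the longest 20 were higher and 402 lower. Aif1, with a length of 875 bases, lay in the shortest group and Malat1, with 6983 bases, in the longest. Across genes, which are not independent replicates, Spearman's rho of length and log2 ratio was -0.54 in the 4T1p library and -0.52 in the 4T1m library. Most genes of the ribosomal and respiratory lists are short by this measure, with exceptions such as Rps15a (5179 bases) and Atp5g1 (4715 bases). These are lengths of the longest annotated transcript, and which transcript the barcodes held was not tested. How far the rise of these lists is separate from length was not tested.

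Granulocytic barcodes did not follow this order. Their ratio of low over middle barcodes, the middle holding more than 2000 and fewer than 8000 UMIs, had medians of 0.21, 0.07, 0.16, 0.19 and 0.37 over the same length groups in the 4T1p library and 0.20, 0.11, 0.15, 0.16 and 0.24 in the 4T1m library. For monocytic barcodes the same ratio fell from 0.12 to -0.23 and from 0.27 to -0.40. The length split was added after the data were seen.

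**Figure D5:**
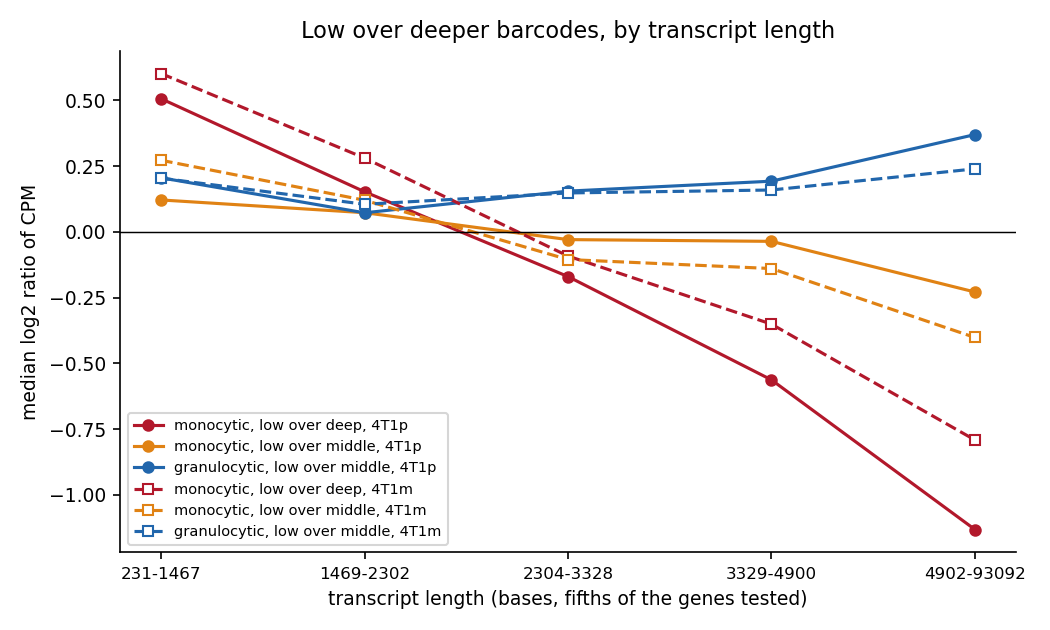
Median log2 ratio by group of transcript length in bases, for low over deep monocytic barcodes and for low over middle barcodes of both kinds, in each library. The low over deep line falls from 0.51 to -1.13 in the 4T1p library and from 0.60 to -0.79 in the 4T1m library.

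Monocytic barcodes of the middle, with more than 2000 and fewer than 8000 UMIs, 154 and 195 in number, were much nearer to the low ones. With them as reference edgeR called 0 of 3429 genes higher and 38 lower in low barcodes at an adjusted p under 0.05, and 501 had an unadjusted p under 0.05. The log2 ratio of Malat1 was -2.19 there, and those of C1qb, Aif1, Fabp5 and Lgals1, at 0.41, 0.45, 0.11 and 0.24, no longer passed. At 500 UMIs Malat1 was detected in 26.0% and 49.7% of these middle barcodes.

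The middle barcodes were split by Malat1, a split chosen after the data were seen and given without a test. A cut through a gradual range would also part the values, so the split cannot show separate kinds of barcode. Those without a Malat1 UMI in a second random thinning to 500 UMIs, 72.7% and 51.3% of the middle, had median UMIs of 2863 and 3006, against 4289 and 5360 for those with one. Ribosomal protein genes stood at 224469 and 189666 CPM without Malat1 and at 118526 and 113434 CPM with it. The inflammatory list stood at 10320 and 16756 CPM without it and at 30370 and 43736 CPM with it, and C1qb at 4083 and 2891 CPM against 1624 and 697 CPM. In the ribosomal and inflammatory values, middle barcodes without Malat1 thus lay nearer to the low barcodes and those with it nearer to the deep ones. The median share of mitochondrial UMIs was 1.55% and 3.38% without Malat1 and 3.63% and 5.33% with it. In the 4T1m library B cell genes summed to 92.5 CPM without and 326 CPM with Malat1 and fibroblast genes to 2.98 and 63.9 CPM, and the part of these in the split was not tested. C1qb with Malat1 stood below its level in deep barcodes, 2597 and 1317 CPM.

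Among the low barcodes, the 21.6% and 35.6% with any Malat1 UMI differed less from the rest. Their median UMIs were 1024 and 1062.5 against 871 and 968, so the split also separated barcodes by depth, and their median share of mitochondrial UMIs was 2.08% and 5.27% against 2.56% and 4.65%. Ribosomal protein genes stood at 190719 and 172050 CPM with Malat1 and at 206487 and 196110 CPM without it. The inflammatory list stood at 12076 and 17002 CPM with it and at 9536 and 13768 CPM without it, and the immediate-early list at 12218 and 6513 CPM against 6810 and 5203 CPM. For these lists the order was the same in both libraries, with smaller gaps than in the middle window. C1qb was not ordered alike, at 4332 CPM with Malat1 against 4269 CPM without it in the 4T1p library and at 2301 against 2667 CPM in the 4T1m library, nor was Il1b, at 1338 against 1398 CPM and at 3157 against 2812 CPM.

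Low barcodes were also split by a UMI of C1qb or C1qc. In the 4T1p library 393 (96.6%) had one and 14 (3.44%) had none, and in the 4T1m library 298 (90.0%) and 33 (9.97%). The barcodes without one had median UMIs of 629 and 908 against 902 and 991. Cxcl2 stood at 5729 and 9823 CPM without C1q against 2590 and 3792 CPM with it, and S100a6, a calcium-binding protein, at 1823 and 930 CPM against 144 and 276 CPM. Cd74 was lower without C1q, at 5295 and 2761 CPM against 15695 and 8636 CPM. Malat1 was higher without C1q, at 5208 and 3429 CPM against 1344 and 1649 CPM. The 14 and 33 barcodes are few and were chosen by a measured gene, so these levels are a description.

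Markers of other cell types were scarce in low barcodes. The rule itself keeps S100a8 and S100a9 low in both classes, so these are a description: S100a8 stood at 105 in low against 213 CPM in deep and at 339 against 316 CPM, and S100a9 at 242 against 255 CPM and 660 against 380 CPM. The 16 neutrophil genes outside the rule summed to 640 and 1415 CPM in low, 1045 and 1665 CPM in deep and 14862 and 18566 CPM in low granulocytic barcodes. T and NK cell genes had 1 and 0 UMIs in all low barcodes, dendritic cell genes 1 and 0, and fibroblast genes 2 and 3. Carcinoma and epithelial genes had 17 and 10 UMIs, led by Krt8 and Krt18, with 4 and 7 of the 10 genes at 0. B cell genes had 30 and 21 UMIs, of which Ighm gave 29 and 18, and 8 and 25 UMIs in the thinned deep barcodes. The 1 B cell gene tested was called higher in low barcodes by edgeR (log2 ratio 1.11) and not by DESeq2. Within the libraries its log2 ratio was 0.93 in 4T1p and 1.13 in 4T1m.

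A few further counts stood out. Mast cell and basophil genes had 11 UMIs in each library, led by Cpa3, against 0 in deep barcodes. In the 4T1m library 9 of the 11 lay in the 33 barcodes without C1qb or C1qc. In the 4T1p library all 11 lay in barcodes with C1qb or C1qc. Endothelial genes had 8 and 9 UMIs, led by Pecam1 with 7 and 9. Platelet genes had 119 and 216 UMIs, almost wholly Pf4, a chemokine that macrophages can also make. Erythroid genes had 27 and 12 UMIs in low and 3 and 182 in deep barcodes, led by Hbb-bs. Their part in the results was not tested.

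Between the tumors, the low barcodes of the library labelled 4T1m were set against those of the library labelled 4T1p, with 1 library each and so with no test. Every direction in this comparison rests on the library labels, which the depths stated in the study's text go against, and would turn if the libraries were exchanged. Of 3875 genes with at least 20 UMIs, 467 (12.1%) were at least 2-fold higher in the 4T1m library and 161 (4.15%) at least 2-fold lower. Among low barcodes of 500 to 1000 UMIs these shares were 7.40% and 7.19%. MHC class II genes were lower in the 4T1m library, by 1.01 on the log2 scale of their summed level, with 4 of 6 at least 2-fold lower. H2-Aa stood at 2969 CPM in the 4T1m library and 6402 CPM in the 4T1p library (log2 ratio -1.11, 95% counting interval -1.214 to -1.003). The same ratio in deep barcodes was -1.31. Interferon-stimulated genes were lower by 0.53, with 4 of 12 at least 2-fold lower, among them Irf7, a factor of the interferon response, at 75.2 against 304 CPM. Ccl8, a monocyte chemokine named after its values were seen, stood at 339 against 2135 CPM (log2 ratio -2.66, -2.95 to -2.38), and at -1.55 in deep barcodes.

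The inflammatory list was higher in the low barcodes of the 4T1m library, by 0.57 on the log2 scale, with 6 of 15 genes at least 2-fold higher. Cxcl3, a neutrophil chemokine, stood at 159 against 29.9 CPM (log2 ratio 2.41, 1.49 to 3.45), and at 2.50 in deep barcodes. Il1b stood at 2937 against 1383 CPM (1.09, 0.94 to 1.24), Ptgs2 at 148 against 54.8 CPM (1.43, 0.68 to 2.22) and Cxcl2 at 4393 against 2680 CPM (0.71, 0.60 to 0.83). The list's ratio in deep barcodes was 0.61, in the same direction. F13a1 stood at 376 against 72.2 CPM (2.38, 1.79 to 3.01) and at 0.94 in deep barcodes, and Ccr2 at 344 against 154 CPM (1.16, 0.70 to 1.62) and at -0.12 in deep barcodes. Plac8, a further monocyte gene, was lower, at 11.6 against 94.7 CPM. The low barcodes of the 4T1m library also carried more neutrophil transcripts, by 1.14 on the log2 scale for the list outside the rule, and more mitochondrial UMIs, and the part of either in these differences was not tested.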

How the data were processed

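Single-cell RNA of GR-1+ cells was measured with 10x Genomics 3′ v3 chemistry, 1 library per tumor type. The deposited values are UMI counts per gene and barcode, not normalized, which the authors made with Cell Ranger on mm10 and filtered to called cells; the matrices list 28692 genes and sum to 9021132 (4T1p) and 14840190 (4T1m) UMIs. The authors' own comparisons were not used.

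Low monocytic, low granulocytic, middle and deep barcodes were selected by the limits given above, without a Ptprc filter, since the members were defined so. Deep barcodes were thinned without replacement to totals drawn from the low barcodes of the same library. Shares of barcodes with a UMI were computed after thinning every barcode to 500 UMIs, which left out 0 barcodes. Gm42418 and AY036118, which overlap ribosomal RNA, were left out of levels. UMIs were summed per class and library (401445 low and 211385 deep in 4T1p, 345557 and 421519 in 4T1m) and low and deep sums were tested with edgeR 4.0.16 (TMM, quasi-likelihood, library as block, Benjamini-Hochberg adjustment, genes kept by edgeR's filter on low counts) in R 4.3.3. DESeq2 1.42.0 was an alternative. The block pairs the low and deep barcodes of 1 library, a pairing given by the design. Since the classes are sums of cells from 1 library each, p-values measure the spread between the 2 libraries and counting error, not the spread between mice. On simulated data with the real totals the test recovered 39.8% of 93 genes changed 2-fold and 91.6% of 95 genes changed 4-fold. It called 0.135% of 4432 unchanged genes. These rates hold for the spread given to the simulated counts, and whether the real sums have that spread was not tested. They therefore do not give the share of false calls in the real fit. Intervals (95%) are exact and, as the floor of 3 UMIs for a count of 0, cover counting error only. Doublets were left in, and removing the barcodes marked by their Scrublet scores (scanpy 1.11.5) was an alternative.

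The genes named were the 8 genes of the rule, the given markers, members of the 34 gene lists, and the 10 highest and 10 lowest genes with at least 50 UMIs in both classes together and 1 direction in both libraries. Between the tumors, genes with at least 20 UMIs were compared. Selenop and Acod1 were matched through their gene IDs. The members and lists were chosen with earlier results of these data known, so the patterns are not independent support of one another. Other thinning, windows, filters, scalings and class rules were tried as alternatives, and the middle reference (more than 2000 and fewer than 8000 UMIs), the 5 length groups, the Malat1 split and the 9 depth windows were chosen after seeing the data.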

Additional observations from a re-analysis of the deposited data

Results flagged for a closer look

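In the low over deep comparison 2 named genes moved in opposite directions in the libraries with counting intervals away from 0 in both. F13a1, Sod2, S100a8 and S100a9 also differed in direction between the libraries and are not counted here. Hbb-bs, a haemoglobin gene, had a log2 ratio of 2.16 in 4T1p barcodes and -3.56 in 4T1m barcodes, and Hbb-bs was detected in 0.513% of the deep 4T1m barcodes at 500 UMIs. Spp1 had a log2 ratio of 0.20 and -0.25. The counting intervals of each lay away from 0, and the difference between the libraries was not tested.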

How the results depend on the processing

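The main fit called 817 genes higher and 932 lower in low barcodes. DESeq2 called 212 and 259, no library block 106 and 360, and a Ptprc UMI in both classes 144 and 297. A low window of 500 to 1000 UMIs gave 357 and 486, and deep barcodes at full depth 1256 and 1443. The middle reference (more than 2000 and fewer than 8000 UMIs) gave 0 and 38, and at most 5% mitochondrial UMIs 476 higher. These are counts of separate fits, some on other numbers of genes, and not shares of the 817 and 932. Genes higher on the ribosomal list numbered 19 with Ptprc, 2 with no block and 0 with the middle reference. On the respiratory list they numbered 25 with Ptprc, 41 at 500 to 1000 UMIs, 13 with no block, 31 by DESeq2 and 0 with the middle reference, and on the cell cycle list 3 with Ptprc, 4 at 500 to 1000 UMIs and 0 with the middle reference. With the middle reference 6 inflammatory and 2 immediate-early genes were lower, and with no block 4 immediate-early genes. Low barcodes numbered 350 and 264 with at least 10 monocytic UMIs, 308 and 175 with at most 5% mitochondrial UMIs and 48 and 75 with Ptprc. Unthinned Malat1 shares were 21.6% and 35.6% in low and 98.1% in deep 4T1p barcodes. In the 500 to 1000 window the percent of genes at least 2-fold higher in 4T1m was 7.40 and the percent of genes at least 2-fold lower in 4T1m was 7.19.

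Some small values changed sign. The lysosome median was -0.041 with the rule after thinning, -0.10 at 500 to 1000 UMIs, -0.017 at 1000 to 2000, -0.018 without Scrublet doublets and -0.037 without scaling. The iron median was -0.16 with Ptprc and -0.069 with the middle reference, the interferon median 0.28 with at most 5% mitochondrial UMIs, and the Cd163 and Lyve1 macrophage median 0.15 with at least 10 monocytic UMIs, 0.064 at 1000 to 2000 UMIs, 0.019 at full depth and 0.088 without a filter. With the middle reference Cd68 stood at -0.017, Adgre1 at -0.020, H2-Aa at -0.0081 and Cdk1 at -0.28. Sod2 stood at 0.026 with Ptprc, 0.0050 without Scrublet doublets and 0.16 within 4T1p. Mki67 stood at 0.26 with at most 5% mitochondrial UMIs. Spp1 stood at -0.47 there, -0.16 at 500 to 1000 UMIs, -0.040 with another draw, -0.042 without Scrublet doublets, -0.10 with the middle reference, -0.033 without scaling and -0.25 within 4T1m. Ptprc stood at 0.66 where it was required, by construction, Fth1 at -0.16 with Ptprc, Hbb-bs at 2.16 within 4T1p and F13a1 at 0.090 within 4T1m. Other causes were not tested. Malat1, Neat1 and Xist stayed lower in every setting run, Malat1 least so with Ptprc at -1.57. Of 109 named genes tested, 104 kept direction and call with the rule after thinning, 109 with RLE size factors, 74 with Ptprc, 71 with no block and 20 with the middle reference. With 1 library per tumor no replicate could be left out.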
